A study of Mus musculus with 9 samples.

Results

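The genes described here are those of sterol synthesis and its control by the transcription factor SREBP2, followed in dendritic cells sorted from mouse spleen. Members were the genes on a list of 28 symbols, matched to the gene symbols that the array's annotation gives its transcript clusters (the probes of 1 gene locus). Of the 28, 26 had a cluster with that symbol alone, out of 19938 genes found in this way in the whole table. Acat2, which codes for the thiolase of the first step, and Soat1, which codes for a sterol-esterifying enzyme, had no such cluster and are not analysed here. The list was not chosen by a threshold on these values, but results of these data were known when it was drawn up.

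Sterol synthesis starts from acetyl-CoA, runs through mevalonate and the isoprenoid diphosphates to squalene and lanosterol, and ends in cholesterol. SREBP2 is made as a membrane protein of the endoplasmic reticulum. When sterols are scarce, SCAP escorts it to the Golgi, where proteases release the part that enters the nucleus and switches on most enzymes of the pathway, and when sterols are plentiful INSIG proteins hold SCAP back. In myeloid cells the pathway is known to be tied to interferon signalling and to the oxysterols that stimulated cells make.

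RNA was measured on 9 arrays of conventional dendritic cells (cDC) from spleens of strain 129SvEv/Tac. Of these, 8 held cDC2, the subset best known for priming CD4 T cells, taken from wild-type mice (WT) or from Batf-/- Batf3-/- mice (DKO), which lack the AP-1 family transcription factors BATF and BATF3, with 2 arrays for each genotype and state. The states were resting and activated, and activated cells had received IFNγ (100 ng/ml) for 1 h followed by LPS of E. coli (1 µg/ml) for 3 h more. The remaining array held resting cDC1 of WT mice, the subset known for cross-presenting antigen to CD8 T cells. Below, a gene "read" a level (log2 intensity), given with replicate 1 first, and "stood at" a log2 difference between groups, with its standard error after ±. Neither the origin of the replicate arrays (separate mice or not) nor the time that resting cells spent in culture is given in the labels. The p-values therefore cover the spread between the arrays at hand, and part or all of it may be technical. The genotype label names no driver that would limit the deletions to dendritic cells.

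The labels held up on most defining markers. Batf read 5.31 to 5.44 on the 4 DKO arrays and 6.74 to 9.07 on the 4 WT cDC2 arrays, and Batf3 read 6.43 to 7.17 and 7.58 to 9.92. Whether their probes sit inside the deleted exons is not known. Irf4 read 9.37 to 11.02 on the cDC2 arrays and 5.13 on the cDC1 array, and Xcr1 4.42 to 4.73 against 9.33. Clec12a, which had been listed with cDC2, went the other way, at 5.64 to 7.17 in cDC2 and 11.27 in cDC1. Irf8, listed with cDC1, read 7.64 to 8.46 on the resting and 11.67 to 12.27 on the activated cDC2 arrays, against 9.94 in cDC1. Tlr3, also listed with cDC1, reached 7.03 in activated WT cDC2 against 6.35 in cDC1. All other tested markers of the 2 subsets lay on the side of their list on every array. Itgam and Clec4a4, listed with cDC2, were too dim to be tested. Markers of B, T and NK cells averaged 4.97 to 5.34, 4.72 to 4.89 and 4.03 to 4.27 per array, and of these 13 markers 12 had a cluster and 1 was bright enough to be tested. The 4 neutrophil markers, all bright enough to be tested, averaged 7.34 to 7.76 per array. Array medians lay between 53.4 and 55.6 on the linear scale, and replicate arrays correlated at 0.969 to 0.980 across genes. With so few arrays, their number sets the precision.

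The promoters printed here show the sequence setting of some of the members described below. They are the 250 bases before the RefSeq start site (build GRCm38.p6), read 5′ to 3′ on the gene's own strand, with capitals for TCACNCCAC (the SREBP core), CCAAT (the box bound by NF-Y, a usual partner of SREBP) and TGANTCA (the AP-1 site, the class of site that BATF dimers with JUN bind), each sought on both strands. Hmgcs1 lies at chr13:119690101-119690350 on the plus strand, Idi1 at chr13:8885356-8885605 and Idi2 at chr13:8952613-8952862, also on the plus strand. Hsd17b7 lies at chr1:169969206-169969455 on the minus strand, and Dhcr7, at the third of its 3 annotated start sites, at chr7:143829964-143830213 on the plus strand.
Hmgcs1: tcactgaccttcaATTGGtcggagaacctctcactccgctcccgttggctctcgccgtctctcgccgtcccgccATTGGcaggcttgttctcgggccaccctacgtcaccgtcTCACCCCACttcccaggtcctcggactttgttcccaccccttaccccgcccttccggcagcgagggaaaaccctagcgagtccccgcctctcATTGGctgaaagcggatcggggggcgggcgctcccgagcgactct
Idi1: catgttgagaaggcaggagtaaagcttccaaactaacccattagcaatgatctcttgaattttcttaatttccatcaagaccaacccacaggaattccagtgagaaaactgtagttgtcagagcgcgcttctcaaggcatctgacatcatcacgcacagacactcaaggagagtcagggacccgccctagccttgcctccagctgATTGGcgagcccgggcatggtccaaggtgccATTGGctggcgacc
Idi2: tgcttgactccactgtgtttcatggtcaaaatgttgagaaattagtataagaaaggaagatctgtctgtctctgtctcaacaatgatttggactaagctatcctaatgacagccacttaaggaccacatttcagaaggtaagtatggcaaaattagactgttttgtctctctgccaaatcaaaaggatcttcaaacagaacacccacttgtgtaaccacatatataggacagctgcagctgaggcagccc
Hsd17b7: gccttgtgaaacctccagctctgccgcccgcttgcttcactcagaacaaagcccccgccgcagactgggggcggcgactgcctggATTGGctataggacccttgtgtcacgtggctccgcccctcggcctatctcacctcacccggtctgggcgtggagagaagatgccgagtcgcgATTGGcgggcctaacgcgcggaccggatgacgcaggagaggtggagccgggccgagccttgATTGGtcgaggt
Dhcr7: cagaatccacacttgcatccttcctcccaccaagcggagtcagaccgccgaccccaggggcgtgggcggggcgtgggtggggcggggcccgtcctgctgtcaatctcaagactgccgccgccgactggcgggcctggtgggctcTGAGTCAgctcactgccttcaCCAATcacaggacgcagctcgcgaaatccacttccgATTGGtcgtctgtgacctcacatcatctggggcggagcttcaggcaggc

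In these runs Hmgcs1 holds 1 SREBP core and 3 CCAAT boxes, Idi1 2 CCAAT boxes, Hsd17b7 3 and Dhcr7 2 together with 1 AP-1 site, while Idi2 holds none of the 3 motifs. Idi1 and Idi2 are paralogues whose start sites lie 67.3 kb apart on chromosome 13 with 0 protein-coding genes of the annotation between them. RefSeq windows, which run from 250 bases before to 50 after the start site, were at hand for 22 of the 26 members. The CCAAT letters were in at least 1 window of 19 of the 22 (86.4%), against 41.1% of all 27025 genes with a window. The SREBP core letters were in 1 of 22 (Hmgcs1, 4.55%) against 1.44% of all genes, and the AP-1 letters in 3 of 22 (Lbr, Msmo1 and Dhcr7, 13.6%) against 8.97%. The E-box CACGTG, also sought on both strands, was in 5 of 22 (Hsd17b7, Sc5d, Dhcr7, Insig1 and Scap, 22.7%) against 8.09%. No motif of the 4 contains another. These matches describe the letters of the windows and were not tied to binding.

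The first comparison asked whether the pathway differs between DKO and WT cDC2. No member passed the test by limma (adjusted p below 0.05 over 10728 genes) in resting cells, in activated cells or in the mean of both states: 0 of 26 in each, where 0.0186% of all genes tested passed. The values nevertheless lay mostly on 1 side. In resting cells 24 of 26 members averaged higher in DKO, where 54.3% of all genes did. The members' median log2 difference was 0.33 against 0.01 over all genes. In activated cells 23 of 26 averaged higher, where 52.9% of all genes did, with a median of 0.38. The isoprenoid enzymes Idi1 and Idi2 had the largest differences, though Idi2, like Tm7sf2, was bright enough for the test through DKO groups alone. Of the roles with several members SREBP2 control had the smallest medians, at 0.10 and 0.01. In such sorted bulk samples fewer cells that express a gene and less RNA per cell cannot be told apart.

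**Figure D1:**
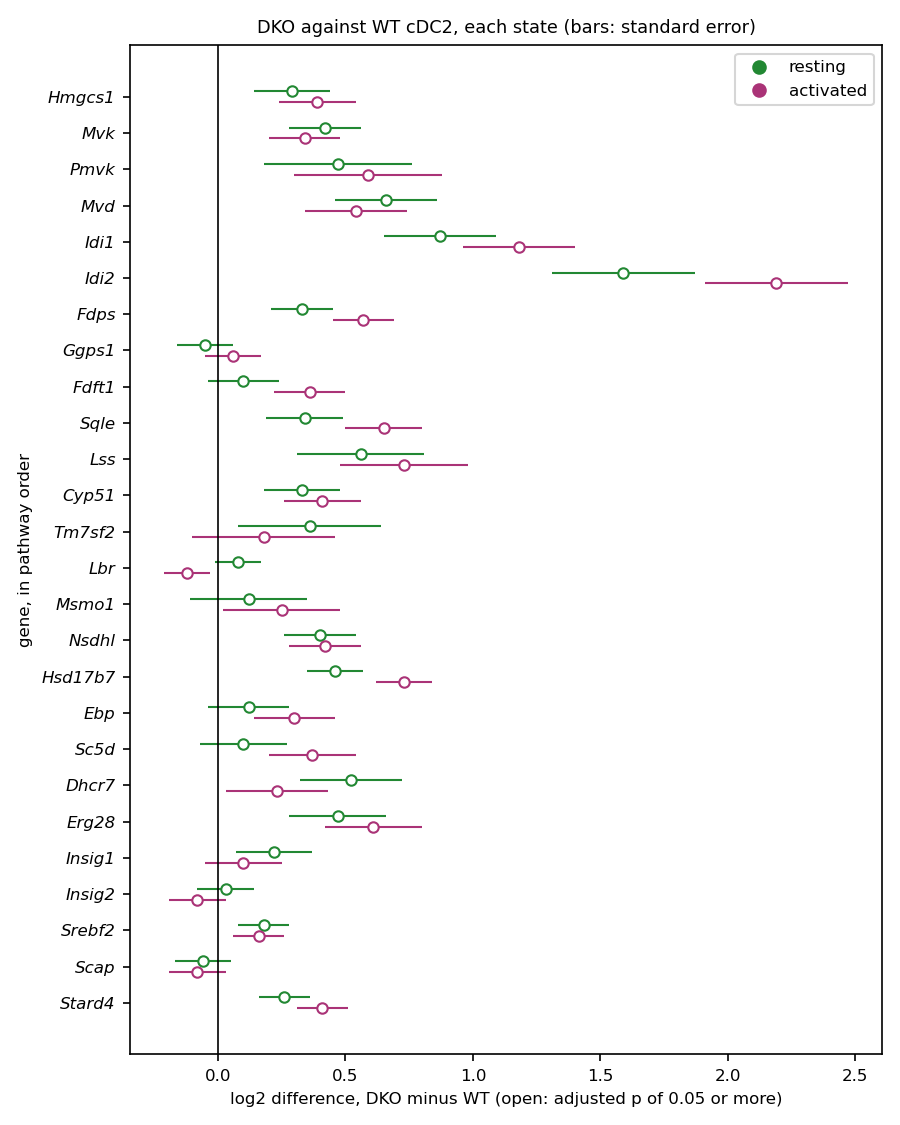
Log2 difference between DKO and WT cDC2 (x axis) for each of the 26 members in pathway order (y axis), in resting (green) and activated (purple) cells, with bars of 1 standard error. All points are open because none had an adjusted p below 0.05. Idi2 lies furthest right, at 1.59 and 2.19, but was bright enough for the test through the DKO groups alone.

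Among the mevalonate steps, Hmgcs1, which makes HMG-CoA, differed by 0.29 ± 0.15 (SE) in resting and 0.39 ± 0.15 in activated cells. The kinases Mvk and Pmvk stood at 0.42 and 0.47 in resting and 0.34 and 0.59 in activated cells. Mvd, the decarboxylase that makes isopentenyl diphosphate, stood at 0.66 ± 0.20 and 0.54 ± 0.20. For all 4 genes both DKO arrays lay above both WT arrays in each state.

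Of the isoprenoid steps, Idi1 and Idi2 differed most between genotypes. Idi2, an isopentenyl diphosphate isomerase, read 7.63 and 6.99 on the resting and 7.64 and 7.26 on the activated DKO arrays, 5.50 and 5.94 on the resting and 5.04 and 5.48 on the activated WT cDC2 arrays and 4.75 in cDC1. Every DKO array stood above every WT array by more than 1 log2 unit, and Idi2 was bright enough for the test only through the DKO groups, with WT means of 5.72 and 5.26 under the brightness filter. That selection favours higher DKO values, so the values of Idi2 support nothing in this comparison. The fitted difference was 1.59 ± 0.28 in resting and 2.19 ± 0.28 in activated cells, and 1.89 ± 0.20 in the mean of both states (limma adjusted p = 0.061). No detection calls were used here, so whether the WT level is above background is not known and no ratio is given. Its paralogue Idi1 read 9.72 and 9.96 on the resting and 9.56 and 9.69 on the activated DKO arrays, 8.73 and 9.22 on the resting and 8.21 and 8.69 on the activated WT cDC2 arrays and 7.77 in cDC1. Here too all DKO arrays lay above all WT arrays, and activated DKO cells read above resting WT cells. The difference was 0.87 ± 0.22 and 1.18 ± 0.22, with 1.02 ± 0.16 in the mean (adjusted p = 0.109). A second cluster of each gene gave 0.95 and 1.24 for Idi1 and 1.24 and 1.37 for Idi2. Whether probes of either paralogue catch RNA of the other was not tested.

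Fdps, which joins isoprenoid units to farnesyl diphosphate, read 10.12 and 9.92 on the resting and 9.54 and 9.62 on the activated DKO arrays, 9.58 and 9.79 on the resting and 8.98 and 9.04 on the activated WT cDC2 arrays and 9.84 in cDC1. The genotypes did not overlap within a state, and activated DKO arrays lay at the level of resting WT arrays. The mean difference was 0.45 ± 0.08 (adjusted p = 0.131). Ggps1, which makes the geranylgeranyl diphosphate used for protein prenylation and not for sterols, stood at -0.05 ± 0.11 and 0.06 ± 0.11.

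**Figure D2:**
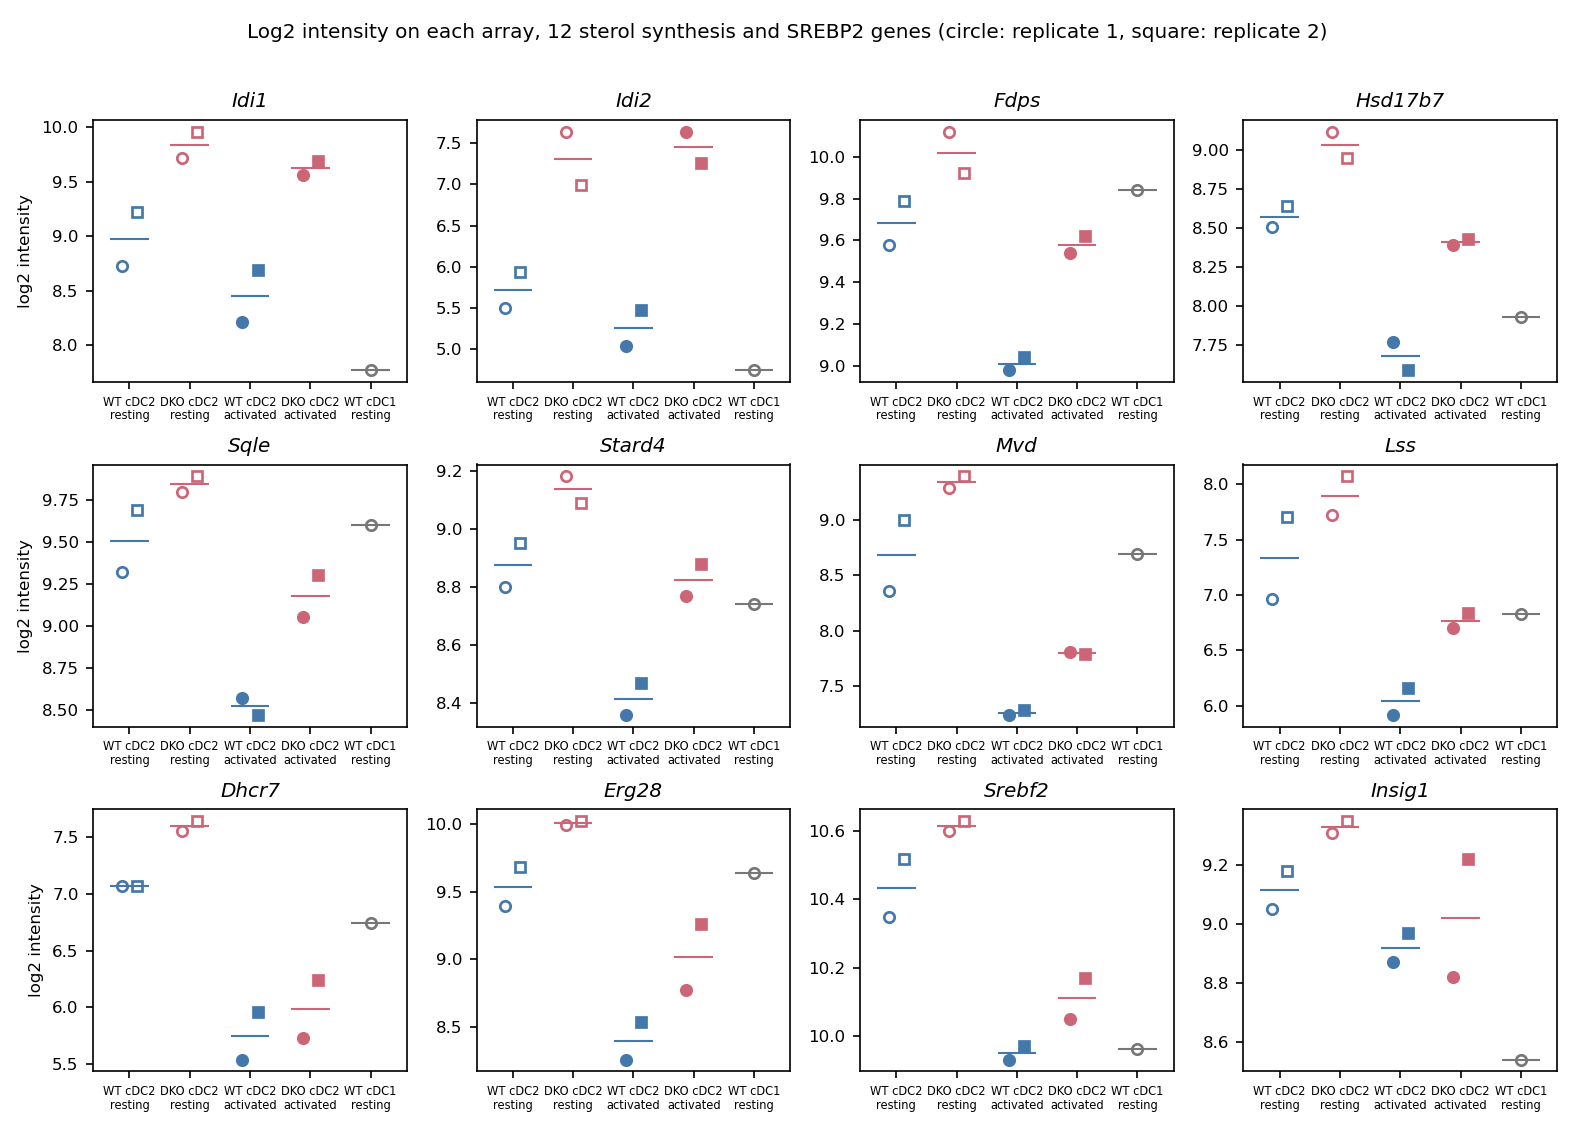
Log2 intensity (y axis, its own range for each gene) on each array of the 5 groups (x axis) for 12 members, with circles for replicate 1, squares for replicate 2, open symbols for resting and filled ones for activated cells, and a line at the group mean. Idi1 separates by genotype in both states, at 9.56 to 9.96 in DKO against 8.21 to 9.22 in WT cDC2, whereas Mvd, Lss, Dhcr7 and Erg28 separate mainly by state. Idi2 also separates by genotype, but it was bright enough for the test through the DKO groups alone, so its values support nothing in that comparison.

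Of the squalene steps, Sqle, the squalene epoxidase and an oxygen-dependent control point, read 9.80 and 9.89 on the resting and 9.05 and 9.30 on the activated DKO arrays, 9.32 and 9.69 on the resting and 8.57 and 8.47 on the activated WT cDC2 arrays and 9.60 in cDC1. DKO arrays were above WT arrays in each state, by a narrow margin at rest. The mean difference was 0.50 ± 0.11 (adjusted p = 0.188). Lss, the cyclase that makes lanosterol, stood at 0.56 ± 0.25 and 0.73 ± 0.25, and Fdft1, squalene synthase, at 0.10 ± 0.14 and 0.36 ± 0.14.

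The 10 members that turn lanosterol into cholesterol had a median of 0.35 in resting and 0.34 in activated cells. Hsd17b7, a ketosteroid reductase of the demethylation complex, read 9.12 and 8.95 on the resting and 8.39 and 8.43 on the activated DKO arrays, 8.51 and 8.64 on the resting and 7.77 and 7.59 on the activated WT cDC2 arrays and 7.93 in cDC1. Its arrays did not overlap between genotypes in either state. The difference was 0.46 ± 0.11 and 0.73 ± 0.11, with 0.59 ± 0.08 in the mean (adjusted p = 0.0834). Erg28, the scaffold of the same complex, stood at 0.47 ± 0.19 and 0.61 ± 0.19, and Nsdhl, its dehydrogenase, at 0.40 and 0.42. The sterol reductase Lbr, which is also a nuclear envelope protein, stood at 0.08 and -0.12, and Msmo1, the methylsterol oxidase, at 0.12 and 0.25 with overlapping arrays. The remaining members of this stretch (Cyp51, Tm7sf2, Ebp, Sc5d and Dhcr7) lay between 0.10 and 0.52 in resting and 0.18 and 0.41 in activated cells.

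The genes that control SREBP2 had differences near 0. Srebf2, the gene of SREBP2 itself and one of its own targets, stood at 0.18 ± 0.10 and 0.16 ± 0.10, the retention proteins Insig1 and Insig2 at 0.22 and 0.03 in resting and 0.10 and -0.08 in activated cells, and Scap at -0.06 and -0.08. Stard4, a carrier of cholesterol between membranes, read 9.18 and 9.09 on the resting and 8.77 and 8.88 on the activated DKO arrays, 8.80 and 8.95 on the resting and 8.36 and 8.47 on the activated WT cDC2 arrays and 8.74 in cDC1. The genotypes did not overlap in either state, and activated DKO arrays again lay near resting WT arrays. Its mean difference was 0.33 ± 0.07 (adjusted p = 0.197).

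Both DKO arrays lay above both WT arrays for 19 of 26 members at rest, where 17.7% of all genes tested did, and for 18 in activated cells, where 16.4% did. They did so in both states for 16 members, where 7.16% of all genes did. At an unadjusted p under 0.05 stood 10 members at rest, 14 in activated cells and 16 in the mean, against 6.59%, 5.95% and 10.8% of all genes. With the replicate number as a block, used because same-numbered arrays deviated together, 11 members passed as higher in the mean of both states, where 2.98% of all genes did. They were Idi1, Idi2, Hsd17b7, Erg28, Lss, Fdps, Sqle, Mvk, Mvd, Stard4 and Nsdhl (limma adjusted p from 0.00483 to 0.0406). In that fit Idi1 passed at rest (adjusted p = 0.0357; 0.317% of all genes were higher) and Idi1 and Idi2 in activated cells (adjusted p = 0.0309 and 0.0391; 0.280%). Idi2 and Tm7sf2 entered the test through DKO groups alone, which bears on their direction here, so their values support nothing in this comparison. Among the other 24 members, 22 averaged higher in DKO at rest and 21 in activated cells, DKO arrays lay above WT arrays for 18, 17 and, in both states, 15, and with the block 1, 1 and 10 passed at rest, in activated cells and in the mean. Leaving out WT resting replicate 1 brought the resting median of the members from 0.33 to 0.18, and 0 members passed the fit without the block with any of the 8 cDC2 arrays left out.

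Other gene lists also read differently in the genotypes, and their part in the members' values was not tested. The 11 interferon-stimulated genes with a cluster averaged 9.32 and 9.06 in resting DKO and 10.11 and 11.25 in resting WT, with WT replicate 2 the highest of the resting arrays, and 11.54 to 12.01 in activated cells of either genotype. Without WT resting replicate 2 the members' resting median was 0.46. The 14 cell cycle genes averaged 6.79 and 7.12 in resting DKO against 6.41 and 6.72 in resting WT, with medians of 0.51 at rest and 0.11 in activated cells, where DKO (6.39 and 6.43) and WT (6.19 and 6.45) overlapped. The 6 macrophage markers averaged 5.41 to 5.83 on DKO and 5.89 to 6.20 on WT cDC2 arrays, and the 3 monocyte markers found 5.59 to 5.84 and 5.92 to 6.42. Markers of plasmacytoid dendritic cells (5 found) averaged 7.38 and 7.64 in resting DKO against 7.84 and 8.24 in resting WT, and 7.74 and 7.91 against 7.99 and 8.09 in activated cells, with medians of -0.88 and -0.15 over the 3 tested. Of the cDC2 and cDC1 markers 5 and 8 were tested, with medians of -0.11 and -0.14 in the mean of both states. Of the 7 lists in this paragraph 0 genes passed by limma without the block. At an unadjusted p under 0.05 in resting cells stood 8 interferon, 5 cell cycle, 4 macrophage and 1 monocyte genes, against 6.59% of all genes. With the block 2, 3, 3 and 1 genes of these lists passed in the mean of both states. The cell cycle genes passed as higher, where 2.98% of all genes did, and the others as lower. With the block 2 plasmacytoid, 2 cDC2 and 2 cDC1 markers were lower in that comparison, and Clec12a stood at -0.93 ± 0.17. The share of all genes lower with the block is not given here, so whether these lower counts stand out cannot be judged.

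**Figure D3:**
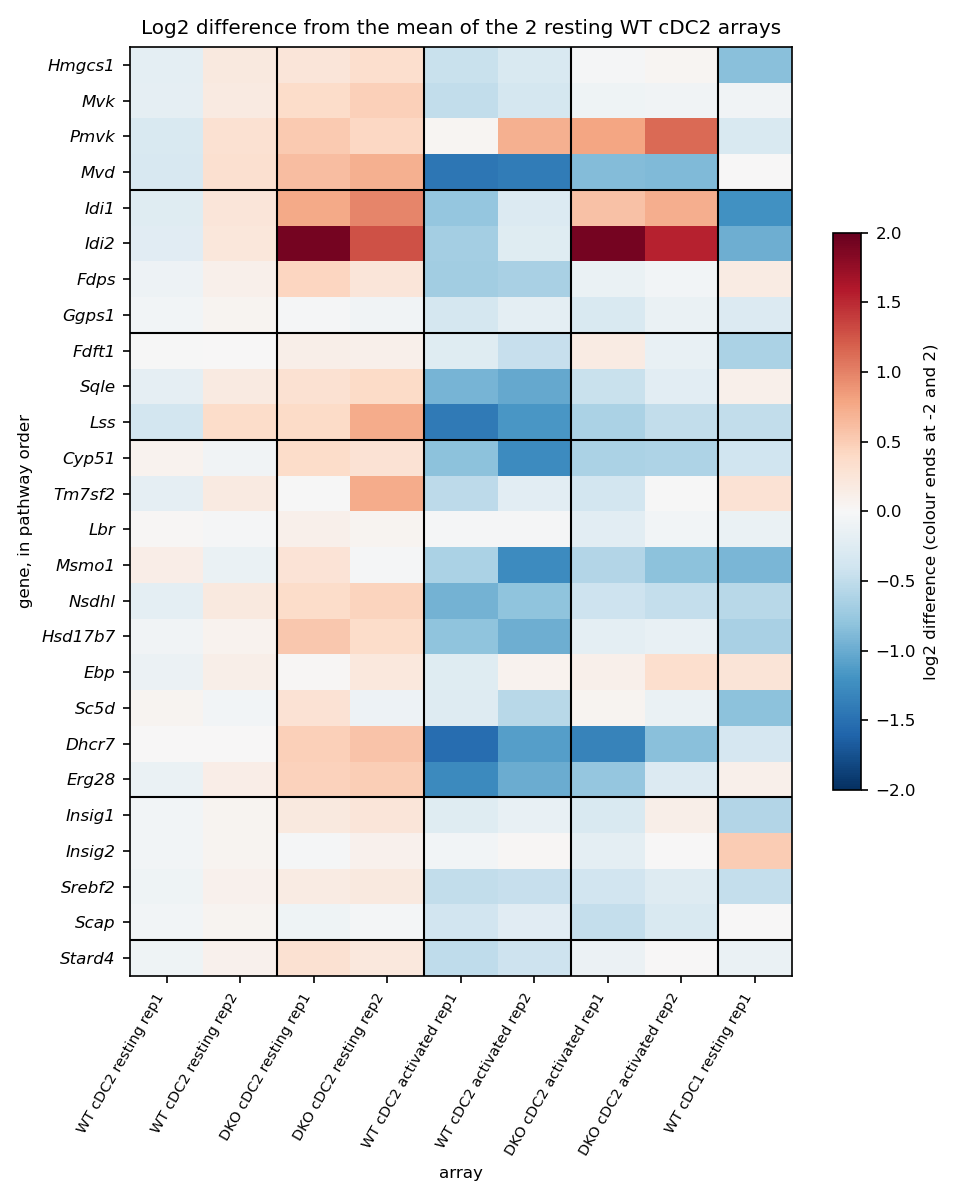
Each cell is the log2 intensity of 1 member (rows, in pathway order, with lines between the roles) on 1 array (columns) minus the mean of the 2 resting WT cDC2 arrays of that gene, with colours ending at -2 and 2. Resting DKO columns are mostly red and activated WT columns mostly blue, and within resting WT cells replicate 1 lies below replicate 2 for most members, as for Mvd at -0.32 and 0.32.

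The second comparison asked how the pathway responds to IFNγ and LPS. Part of the sterol synthesis genes fell in activated cDC2 of both genotypes. In WT cells 11 of 26 members fell and 0 rose, where 6.57% of all genes tested fell and 3.97% rose, and in DKO cells 9 fell and 0 rose, where 7.90% fell and 5.82% rose. The same 9 genes passed in both genotypes: Mvd, Sqle, Lss, Cyp51, Nsdhl, Hsd17b7, Dhcr7, Erg28 and Srebf2, with Fdps and Stard4 passing in WT cells in addition. The median over the members was -0.46 in WT and -0.38 in DKO cells, against -0.07 and -0.09 over all genes. The WT and the DKO response share no arrays with each other, but each shares its arrays with the genotype comparisons.

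**Figure D4:**
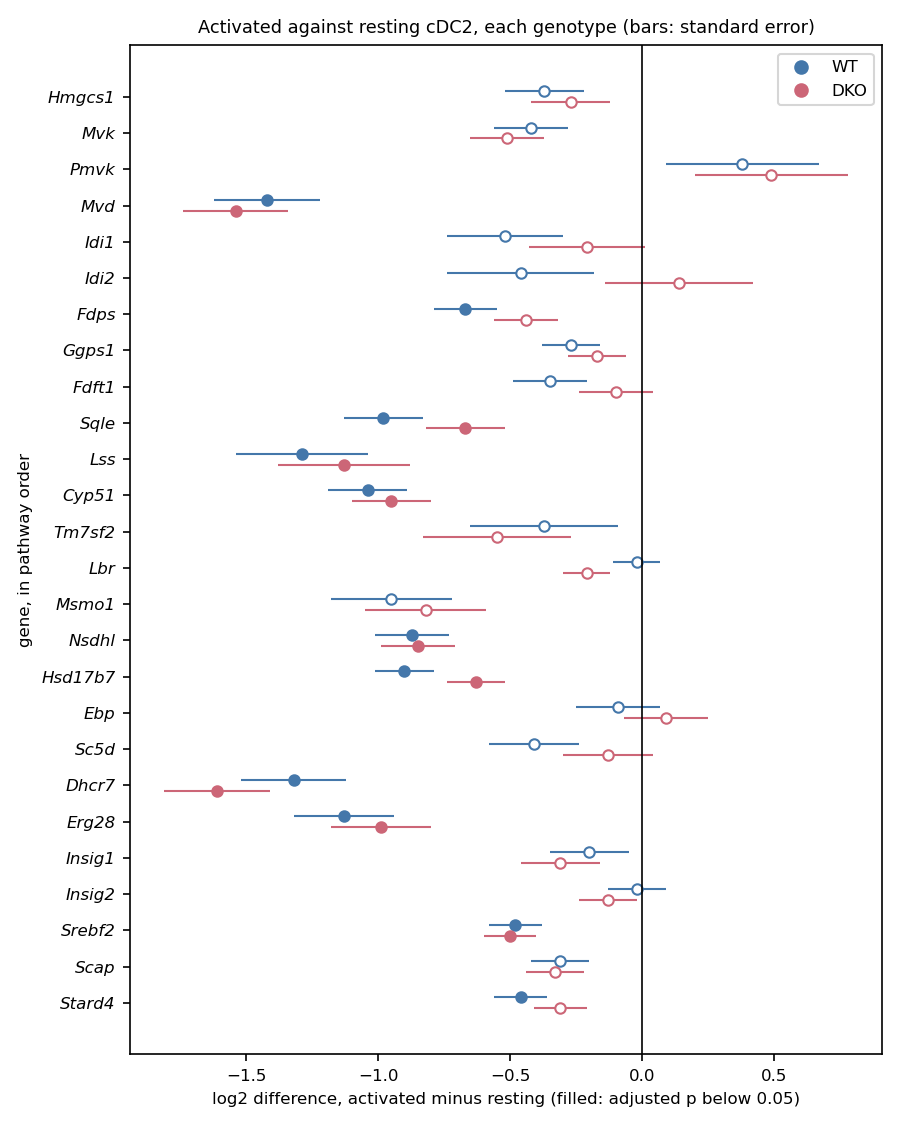
Log2 difference between activated and resting cDC2 (x axis) for the 26 members in pathway order (y axis), in WT (blue) and DKO (red), with bars of 1 standard error and filled points for an adjusted p below 0.05. Filled points run from Mvd at -1.42 and Dhcr7 at -1.61 to Stard4 at -0.46, and Pmvk is the member furthest to the right, at 0.38 and 0.49.

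The early steps split. Mvd read 9.29 and 9.39 on the resting and 7.81 and 7.79 on the activated DKO arrays, 8.36 and 9.0 on the resting and 7.24 and 7.28 on the activated WT cDC2 arrays and 8.69 in cDC1. All activated arrays were below all resting ones, by over 1 log2 unit within a genotype. Mvd fell by 1.42 ± 0.20 in WT (limma adjusted p = 0.0144) and by 1.54 ± 0.20 in DKO cells (adjusted p = 0.008). Hmgcs1 and Mvk stood at -0.37 and -0.42 in WT and -0.27 and -0.51 in DKO cells without passing, and with the replicate block Hmgcs1 passed in WT (adjusted p = 0.0342) and Mvk in both (adjusted p = 0.0216 and 0.0109). Pmvk was the 1 member of the early steps with values above 0, at 0.38 ± 0.29 and 0.49 ± 0.29.

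The isoprenoid steps gave smaller values. Fdps fell by 0.67 ± 0.12 in WT cells (adjusted p = 0.0239) and stood at -0.44 ± 0.12 in DKO cells (adjusted p = 0.0552, or 0.0222 with the block). Idi1 stood at -0.52 ± 0.22 in WT and -0.21 ± 0.22 in DKO, Idi2 at -0.46 ± 0.28 and 0.14 ± 0.28, and Ggps1 at -0.27 and -0.17. Neither Idi1 nor Idi2 passed in either response, except Idi1 in WT cells with the block (adjusted p = 0.015).

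At the squalene steps, Lss read 7.72 and 8.07 on the resting and 6.70 and 6.84 on the activated DKO arrays, 6.96 and 7.70 on the resting and 5.92 and 6.16 on the activated WT cDC2 arrays and 6.83 in cDC1. Activated arrays lay below resting ones in each genotype, and the resting WT replicates were the furthest apart. Lss fell by 1.29 ± 0.25 in WT (adjusted p = 0.0328) and by 1.13 ± 0.25 in DKO cells (adjusted p = 0.0364). Sqle, whose arrays are given above, fell by 0.98 ± 0.15 (adjusted p = 0.0183) and by 0.67 ± 0.15 (adjusted p = 0.0369). Fdft1 stood at -0.35 ± 0.14 and -0.10 ± 0.14, and passed in WT cells with the block (adjusted p = 0.0463).

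Of the 10 members between lanosterol and cholesterol 5 fell in each genotype. Dhcr7, the reductase of the last step, read 7.55 and 7.64 on the resting and 5.73 and 6.24 on the activated DKO arrays, 7.07 and 7.07 on the resting and 5.54 and 5.96 on the activated WT cDC2 arrays and 6.74 in cDC1. The states were far apart, and activated arrays of the genotypes overlapped. The activated WT mean, 5.75, lay under the brightness filter, and the activated DKO mean was 5.99. No detection calls were used, so whether these levels are above background is not known. Dhcr7 fell by 1.32 ± 0.20 in WT (adjusted p = 0.0185) and by 1.61 ± 0.20 in DKO cells (adjusted p = 0.00788). Erg28 read 9.99 and 10.02 on the resting and 8.77 and 9.26 on the activated DKO arrays, 9.39 and 9.68 on the resting and 8.26 and 8.54 on the activated WT cDC2 arrays and 9.64 in cDC1. Its arrays ranked resting DKO, resting WT, activated DKO and activated WT without overlap. It fell by 1.13 ± 0.19 and by 0.99 ± 0.19 (adjusted p = 0.0239 and 0.0244).

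Cyp51, the P450 enzyme that demethylates lanosterol, read 9.02 and 8.94 on the resting and 8.02 and 8.03 on the activated DKO arrays, 8.72 and 8.58 on the resting and 7.83 and 7.39 on the activated WT cDC2 arrays and 8.25 in cDC1. Nsdhl read 9.32 and 9.41 on the resting and 8.54 and 8.49 on the activated DKO arrays, 8.76 and 9.16 on the resting and 8.02 and 8.16 on the activated WT cDC2 arrays and 8.40 in cDC1. For both genes the 4 groups did not overlap with each other. Cyp51 fell by 1.04 ± 0.15 in WT and by 0.95 ± 0.15 in DKO cells (adjusted p = 0.0165 and 0.014), Nsdhl by 0.87 ± 0.14 and by 0.85 ± 0.14 (adjusted p = 0.0222 and 0.0164), and Hsd17b7 by 0.90 ± 0.11 and by 0.63 ± 0.11 (adjusted p = 0.0108 and 0.019). Msmo1 stood at -0.95 ± 0.23 (adjusted p = 0.0534) and -0.82 ± 0.23 (adjusted p = 0.0669), and passed in both genotypes with the block (adjusted p = 0.00252 and 0.00296). With the block Sc5d, a sterol desaturase, also passed in WT (-0.41, adjusted p = 0.0174) and Tm7sf2 in DKO cells (-0.55, adjusted p = 0.0155). Tm7sf2 exceeded the brightness filter only in resting DKO cells, which favours a fall there, so its value supports nothing in this comparison. Ebp, the sterol isomerase, stood at -0.09 and 0.09, and Lbr at -0.02 and -0.21.

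Among the control genes, Srebf2 read 10.60 and 10.63 on the resting and 10.05 and 10.17 on the activated DKO arrays, 10.35 and 10.52 on the resting and 9.93 and 9.97 on the activated WT cDC2 arrays and 9.96 in cDC1. Activated arrays lay below resting ones in each genotype within a narrow range. Srebf2 fell by 0.48 ± 0.10 in WT (adjusted p = 0.0362) and by 0.50 ± 0.10 in DKO cells (adjusted p = 0.0252). Insig1 stood at -0.20 and -0.31, Scap at -0.31 and -0.33 and Insig2 at -0.02 and -0.13, of which Scap passed in both genotypes with the block (adjusted p = 0.0256 and 0.0193). Stard4 fell by 0.46 ± 0.10 in WT (adjusted p = 0.0429) and stood at -0.31 ± 0.10 in DKO cells (adjusted p = 0.0992, or 0.0376 with the block).

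Both activated arrays lay below both resting arrays for 22 of 26 members in WT, where 36.4% of all genes did, and for 19 in DKO cells, where 39.3% did. With the replicate block 18 members were lower in WT cells and 15 in DKO cells, where 23.9% and 25.0% of all genes were. The 15 include Tm7sf2, which was tested only through resting DKO cells. Over all genes 37.7% of the WT calls were higher, against 48.8% after quantile normalization. The number of WT calls, 11, was 0 without WT activated replicate 2, 2 without WT activated replicate 1, 4 and 5 without WT resting replicates 1 and 2, and 7 without either resting DKO array. The DKO number, 9, was 0 and 2 without DKO resting replicates 2 and 1, and 1 and 3 without DKO activated replicates 1 and 2. In the same arrays 2 of 11 interferon-stimulated genes rose in WT and 8 in DKO cells, where 3.97% and 5.82% of all genes did. Of 14 cell cycle genes 0 and 4 fell (medians -0.29 and -0.49), where 6.57% and 7.90% of all genes did. At an unadjusted p under 0.05 stood 5 and 9 of these 14, against 30.4% and 31.4% of all genes. A difference between the responses passed for 0 of 10728 genes, so these counts show no difference between genotypes. The part of either list in the members' values was not tested.

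The difference between the responses of the genotypes was tested as an interaction. It passed for 0 of 26 members and 0% of all genes by limma, with 0 members and 121 genes (1.13%) at an unadjusted p under 0.05. The median over the members was 0.11, which turned to -0.04 without WT resting replicate 2. All 4 isoprenoid and all 3 squalene members had values above 0, with Idi1 at 0.31 ± 0.31, Sqle at 0.31 ± 0.21 and Idi2 at 0.60 ± 0.40. Both WT means of Idi2 lay under the brightness filter, so its value supports nothing here. A second cluster of Idi2 gave responses of -0.09 in WT and 0.04 in DKO cells. The 4 genes of SREBP2 control lay between -0.11 and -0.02. Members called in WT cells alone, Fdps at 0.24 ± 0.16 and Stard4 at 0.15 ± 0.15, were therefore not shown to respond differently in DKO cells.

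The last comparison set the resting WT cDC1 array against the 2 resting WT cDC2 arrays. Of the 26 members 3 were lower in cDC1 and 0 higher, where 6.56% of all genes were lower and 7.08% higher, and the median was -0.31. Hmgcs1 read 10.68 and 10.76 on the resting and 10.42 and 10.48 on the activated DKO arrays, 10.24 and 10.63 on the resting and 9.99 and 10.13 on the activated WT cDC2 arrays and 9.61 in cDC1. The cDC1 array was the lowest of the 9 for this gene. The difference was -0.83 ± 0.18 (adjusted p = 0.0304). Idi1, also lowest in cDC1, differed by -1.21 ± 0.27 (adjusted p = 0.0353) and Hsd17b7 by -0.65 ± 0.14 (adjusted p = 0.0291). Insig2 had the largest value on the higher side, 8.31 in cDC1 against 7.60 to 7.89 on the cDC2 arrays (0.51 ± 0.14, adjusted p = 0.0586). The test assumed that the lone cDC1 array varies as the cDC2 arrays do, and without WT resting replicate 2 the number of calls was 0. Of the cell cycle genes 9 of 14 were higher in cDC1, at a mean level of 7.87 against 6.41 and 6.72, and their part in the members' values was not tested.

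Genes that process or degrade the SREBP proteins moved in both directions. Of 6 tested, 0 passed between genotypes by limma with or without the block. In activated cells 1 had an unadjusted p under 0.05, against 5.95% of all genes. On activation 2 rose and 1 fell in each genotype. Of all genes 3.97% rose and 6.57% fell in WT cells, and 5.82% rose and 7.90% fell in DKO cells. With the block 2 rose and 2 fell in each, where 23.9% (WT) and 25.0% (DKO) of all genes fell. The share of all genes that rose with the block is not given here. Srebf1, the gene of SREBP1, which drives fatty acid synthesis, rose by 1.07 ± 0.11 in WT and by 0.86 ± 0.11 in DKO cells (limma adjusted p = 0.00707 and 0.008), while Srebf2 fell as given above. Rnf139, a ubiquitin ligase of the endoplasmic reticulum, rose by 1.23 ± 0.24 and by 1.53 ± 0.24 (adjusted p = 0.0317 and 0.0129). Mbtps1, the protease that makes the first cut in SREBP, fell by 0.77 ± 0.13 and by 0.51 ± 0.13 (adjusted p = 0.0233 and 0.0496).

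The 8 other genes linked to SREBP2 had a median of 0.26 between genotypes in the mean of both states. Of these, 7 of 8 lay above 0, where 53.5% of all genes did, and 0 passed by limma. An unadjusted p under 0.05 was reached by 2, against 10.8% of all genes, and 2 passed with the block. Aacs, which feeds acetoacetate into sterol synthesis, stood at 0.60 ± 0.09 (adjusted p = 0.0973) and Acly, which supplies acetyl-CoA from citrate, at 0.38 ± 0.11. On activation 4 of the 8 fell in each genotype, where 6.57% of all genes in WT and 7.90% in DKO cells did. With the block 6 fell in each, where 23.9% and 25.0% of all genes did. Acss2, which makes acetyl-CoA from acetate, fell by 2.16 ± 0.28 in WT and by 2.58 ± 0.28 in DKO cells, and the desaturase gene Fads1 by 1.33 ± 0.22 and by 1.26 ± 0.22. Aacs fell by 0.84 ± 0.12 in both, and Tmem97, which codes for a sterol-binding membrane protein, by 0.62 ± 0.15 and by 0.90 ± 0.15 (adjusted p for the 4 genes from 0.00484 to 0.0497). The 10 tested genes of the non-sterol isoprenoid branch, which lead from farnesyl diphosphate to prenylated proteins, dolichol and ubiquinone, had 0 past the threshold in any comparison by limma without the block. With the block 4 were lower after activation in each genotype, where 23.9% (WT) and 25.0% (DKO) of all genes were, and 0 differed between genotypes. At an unadjusted p under 0.05 stood 1 in the mean genotype comparison, against 10.8% of all genes. In the WT and DKO response 2 and 1 did, against 30.4% and 31.4%. The median of the 10 genes was 0.06 between genotypes and -0.17 and -0.16 on activation. Coq2, of ubiquinone synthesis, had the smallest p between genotypes, at -0.27 ± 0.09 (adjusted p = 0.365).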

How the data were processed

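Each deposited value is a linear intensity of 1 transcript cluster on 1 array. Per the submitters' processing notes the authors used RMA in Affymetrix Expression Console, and same-rank values of the arrays differed by at most 0.31 (log2), so a difference in total RNA per cell is not visible. RNA was labelled with a kit for very small amounts, per the labels' protocols. Log2 values had been foreseen, so log2 was taken before any test. Of 28853 clusters 21789 carried 1 symbol, and the cluster of highest mean stood for a gene. Of 19938 genes, 10728 with a group mean above 61.3 were tested, including all 26 members found (Idi2 and Tm7sf2 through DKO groups alone).

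limma 3.58.1 in R 4.3.3 (lmFit, eBayes, two-sided) was fitted on 9 arrays with 5 group means and 4 residual degrees of freedom, checked on simulated data. P-values were Benjamini-Hochberg adjusted over all genes tested, with a threshold of 0.05. Same-numbered cDC2 arrays deviated together in all 6 pairs of groups (r from 0.45 to 0.69), so the replicate block is given beside calls it moves. The members and all lists were chosen with earlier results of these data known. Genes given in full passed in a comparison or had 1 of the 6 smallest p-values between genotypes. From other lists up to 4 past the threshold were named, otherwise up to 2 of smallest p, and always Batf, Batf3 and Ch25h. Alternatives were quantile normalization, subtracted array medians, an added 16, no filter or a stricter one, the mean of all clusters, a variance trend, cDC2 arrays alone, the block and each array left out. Promoters are from RefSeq. A planned identity of related proteins was not computed here.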

Additional observations from a re-analysis of the deposited data

How the results depend on the processing

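No member past the threshold reversed under any alternative run, and of the members' medians 116 kept their sign and 1 reversed, the interaction at -0.04 without WT resting replicate 2 (0.11 otherwise, with a range of -0.04 to 0.22 over the arrays left out). Many calls of single genes were lost with an array left out, while their values kept their sign. In WT cells the response of Lss then ranged from -1.66 to -0.92, of Srebf2 from -0.57 to -0.40 and of Stard4 from -0.54 to -0.39. Counts of members past the threshold moved more than the medians did. With the replicate block they were 1 in resting, 2 in activated and 11 in the mean genotype comparison (0 without it), and 18 and 15 for the WT and DKO response (11 and 9 without it). With an array left out they ranged from 0 to 8 for the WT response, from 0 to 10 for the DKO response and from 0 to 3 for cDC1, and were 0 for genotype and interaction. A group then held 1 array, assumed to vary as the others do. The cDC1 count, 3, was 5 with quantile normalization and 6 with 16 added before log2. In all, 99 counts of members stayed within 1.5 times the main count (so 8 against 11 is within, 7 is not), 7 were larger and 11 smaller. With 2 arrays a group, tests between genotypes have little precision.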

Other observations

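Genes that make, sense or move sterols beyond the pathway behaved unevenly. Of 11 tested genes of oxysterols, sterol esters and sterol transport, 0 passed between genotypes by limma. In the mean of both states 3 had an unadjusted p under 0.05, against 10.8% of all genes, and 2 were lower with the block. The share of all genes lower there is not given here. With the block 1 was lower after activation in each genotype, where 23.9% and 25.0% of all genes were. In that fit 1 and 2 were higher in WT and DKO cells. An unadjusted p under 0.05 was reached by 2 and 3 on activation, against 30.4% and 31.4% of all genes. Without the block 1 fell and 0 rose on activation in each genotype, where 6.57% (WT) and 7.90% (DKO) of all genes fell. The gene that fell was Lipa, the lysosomal enzyme that frees cholesterol from its esters. Lipa read 11.20 and 11.24 on the resting and 8.87 and 8.17 on the activated DKO arrays. On the WT cDC2 arrays it read 11.95 and 11.46 at rest and 10.10 and 9.14 when activated. It fell by 2.08 ± 0.37 in WT and by 2.70 ± 0.37 in DKO cells (adjusted p = 0.0257 and 0.00911). Ch25h, which makes the oxysterol that restrains SREBP2 in stimulated macrophages, read 6.98 to 8.60 over all arrays and had no call, at -0.22 ± 0.46 in WT and -0.29 ± 0.46 in DKO cells on activation. In the cDC1 array 3 genes of this list were lower (Gpr183, Gramd1b and Osbp) and 2 higher. Of all genes 6.56% were lower and 7.08% higher there. Gpr183, the receptor for oxysterols that guides dendritic cells, read 8.55 against 11.82 to 12.40 on the cDC2 arrays (-3.37 ± 0.18, adjusted p = 4.5e-04), and Gramd1b, which carries sterols from the plasma membrane, 6.84 against 8.72 to 9.91 (-2.24 ± 0.40, adjusted p = 0.0174). Cyp27a1 and Hsd3b7, enzymes of oxysterol turnover, were higher in cDC1 by 1.50 ± 0.18 and 0.91 ± 0.15 (adjusted p = 0.00555 and 0.0126).

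Of the LXR group, which answers to sterol excess, 3 genes were tested. Mylip, the ubiquitin ligase that LXR induces to remove lipoprotein receptors, read 10.22 and 10.62 on the resting and 9.02 and 9.47 on the activated DKO arrays, 11.60 and 11.55 on the resting and 10.68 and 10.56 on the activated WT cDC2 arrays and 12.09 in cDC1. DKO arrays lay below WT arrays in each state (-1.27 ± 0.14 in the mean of both states, adjusted p = 0.061). With the replicate block 2 of the 3 genes were lower in DKO in that comparison, and 1 in each state. The share of all genes lower with the block between genotypes is not given here, so whether these counts stand out cannot be judged. On activation Mylip fell by 0.96 ± 0.19 in WT (adjusted p = 0.0339) and by 1.17 ± 0.19 in DKO cells (adjusted p = 0.0145). Nr1h3, the gene of LXR alpha, fell by 1.12 ± 0.26 in WT cells (adjusted p = 0.046) and stood at -1.0 ± 0.26 in DKO cells (adjusted p = 0.0529). In DKO cells 2 of the 3 genes were lower with the block against 1 without it, where 25.0% and 7.90% of all genes were.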
